A study of Mus musculus with 6 samples.

Results

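To see how ectopic activation of human *SRY* bears on the protein-degrading machinery of the neonatal liver, the genes of the proteasome were examined on bead arrays of whole liver. They were every probe whose gene symbol in the deposited table began with *Psma*, *Psmb*, *Psmc*, *Psmd*, *Psme*, *Psmf* or *Psmg* followed by a number, which gave 65 probes for 44 symbols out of 25697 probes for 18138 symbols. All 44 symbols were current mouse gene symbols in RefSeq. One of them, *Psmc3ip*, matched by its name alone: it encodes a factor of meiotic recombination and not a proteasome subunit, and it was kept apart from the subunit groups.

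The livers came from male FVB/N pups (FVB in the labels) at postnatal day 6, with 3 arrays from hSRY-ON pups and 3 from hSRY-OFF pups. Both groups were described in the study's methods as carrying *Signalox-hSRY*, a single-copy transgene at the *H11* locus with the strong, broadly active *CAG* promoter. In hSRY-OFF pups the cassette was not recombined and the red fluorescent protein DsRed2 was made, although parts of the study compare with littermates that lack the transgene. In hSRY-ON pups Cre recombinase carried over in the oocyte from *Ddx4-Cre* mothers had recombined the cassette at the start of embryonic life, so that FLAG-tagged human SRY and the green fluorescent protein EGFP were made throughout the body, and the hSRY-ON pups chosen for the arrays did not themselves carry *Ddx4-Cre*. The hSRY-ON pups were growth retarded and lacked milk in the stomach, so the transgene and the nutritional state of the pups cannot be told apart in these groups. All hSRY-ON pups shared 1 transgene insertion site, and no probe for human *SRY* was used here to check the labels.

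The proteasome is the barrel-shaped protease that degrades proteins tagged with ubiquitin. Its core particle is a stack of rings of alpha subunits (*Psma* genes), which form the gate, and beta subunits (*Psmb* genes), of which Psmb5, Psmb6 and Psmb7 cut peptide bonds. Its cap, built from ATPases (*Psmc* genes) and non-ATPase subunits (most *Psmd* genes), binds ubiquitinated proteins, unfolds them and feeds them into the core. In immune cells, and in other cells exposed to interferon-gamma, the catalytic subunits are replaced in newly made cores by the inducible Psmb8, Psmb9 and Psmb10, giving the immunoproteasome, which favours peptides that fit MHC class I molecules. The alternative activator PA28, made of Psme1 and Psme2, opens the core without ubiquitin and is induced by the same cytokine.

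The genes *Psmb8* and *Psmb9* lie beside those of the peptide transporter that carries proteasome products into the endoplasmic reticulum. In the RefSeq annotation of assembly GRCm38.p6, *Psmb8* lay on chromosome 17 between *Tap1* and *Tap2*, and *Psmb9* was the other neighbour of *Tap1*, while *Psmb10* lay on chromosome 8, and *Psme1* and *Psme2* were separated on chromosome 14 by *Emc9* alone. The stretch between the starts of the divergent genes *Psmb9* and *Tap1* is shown because a single short region lies upstream of both. It covers 225 bases, chr17:34187331-34187555 of GRCm38.p6 on the plus strand, from the base beside the *Psmb9* start to the base beside the *Tap1* start, with the CCAAT box in capitals:
Psmb9 and Tap1: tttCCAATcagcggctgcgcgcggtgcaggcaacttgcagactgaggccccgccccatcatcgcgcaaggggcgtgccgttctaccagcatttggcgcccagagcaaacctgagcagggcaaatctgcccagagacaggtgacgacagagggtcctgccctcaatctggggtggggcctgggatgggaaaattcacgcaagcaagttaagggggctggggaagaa

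Short motifs were looked for on both strands of the RefSeq promoters, which run from 250 bases before to 50 bases after a start. The interferon stimulated response element core, GAAA followed by any 2 bases and another GAAA, was in 1 of the 6 promoters of *Psmb8*, *Psmb9*, *Psmb10*, *Psme1* and *Psme2* (*Psme2* has 2 starts), in 3 of the 34 promoters of other proteasome genes (those of *Psmb3*, *Psmd4* and *Psmd9*) and in 3.44% of all 32851 promoters. The gamma activated site TTCNNNGAA was in 1 of the 6, in 1 of the 34 and in 8.3% of all promoters. The CCAAT box was in 1 of the 6, in 12 of the 34 and in 37.4% of all promoters, and the antioxidant response element core TGACNNNGC, a site of the Nrf family of factors that drive proteasome genes, was in none of the 6 (0), in 6 of the 34 and in 12.4% of all. Promoters were found for 38 of the 44 symbols. A matching letter string in these windows is a description and not a bound site. Of the genes with the interferon stimulated response element core, *Psme1* was called lower, *Psmd4* and *Psmd9* were called higher, and *Psmb3* was not called. The matches in *Psmb8* (chr17:34198078-34198126, 97 to 89 bases before the start) and *Psme1* (chr14:55578493-55578522, bases 10 to 19 of the transcript, on the opposite strand) are given because these genes fell, and that in *Psmd9* (chr5:123228139-123228187, 31 to 23 bases before the start) because it had the largest rise, all on the plus strand of GRCm38.p6 with the motif in capitals:
Psmb8: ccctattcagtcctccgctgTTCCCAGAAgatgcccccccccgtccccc
Psme1: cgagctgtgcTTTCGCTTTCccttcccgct
Psmd9: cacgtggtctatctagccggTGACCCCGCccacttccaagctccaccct

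Before normalization, the median intensity of the 6 arrays lay between 146.9 and 164.7, and 10318 to 10762 probes per array (40.2% to 41.9%) were detected, meaning that their detection p, the rank of a probe among the negative control beads, was under 0.01. Array profiles correlated at 0.987 to 0.992 within hSRY-OFF, 0.965 to 0.982 within hSRY-ON and 0.912 to 0.939 between the groups (Pearson's r across the tested probes, as a description). All 6 hepatocyte marker genes, among them *Alb* and *Ttr*, were detected on all arrays. Probes detected on at least 3 of the 6 arrays were tested, 10734 in all, and values below are log2 intensities after background correction and quantile normalization, with differences given as hSRY-ON minus hSRY-OFF. A probe was called higher or lower where its adjusted p in limma was under 0.05. Values are given in the order replicate 1, 2, 3, and each probe has its own brightness, so levels of different probes were not compared.

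Among the proteasome genes the inducible catalytic subunits and PA28 fell in hSRY-ON liver, while most of the constitutive core and of the cap was not called in either direction. Of the 65 probes, 51 for 39 symbols were tested; 8 were called lower, 4 were called higher and 39 were not called. The share called lower was 15.7%, beside 17.3% of all tested probes, and the share called higher was 7.84%, beside 15.8% of all, and 23.5% were called in either direction, beside 33.1% of all. As a whole the family held no larger share of calls than the array. Of the 8 probes called lower, 7 belonged to *Psmb8*, *Psmb9*, *Psmb10*, *Psme1* and *Psme2*. Among the other 44 tested probes, 1 (2.27%) was called lower and 4 (9.09%) were called higher, with a median difference of 0.011, beside a median of 0.017 over all tested probes. Under median scaling 1 probe was called higher and 8 lower, and without hSRY-OFF replicate 1 or hSRY-OFF replicate 2 the counts were 1 and 5. The count of rises was also 1 without hSRY-ON replicate 1 and 2 without hSRY-ON replicate 3. All hSRY-ON values lay below all hSRY-OFF values for 10 of the 51 probes (19.6%, beside 24.6% of all tested probes) and above them for 7 (13.7%, beside 25.4%).

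**Figure D1:**
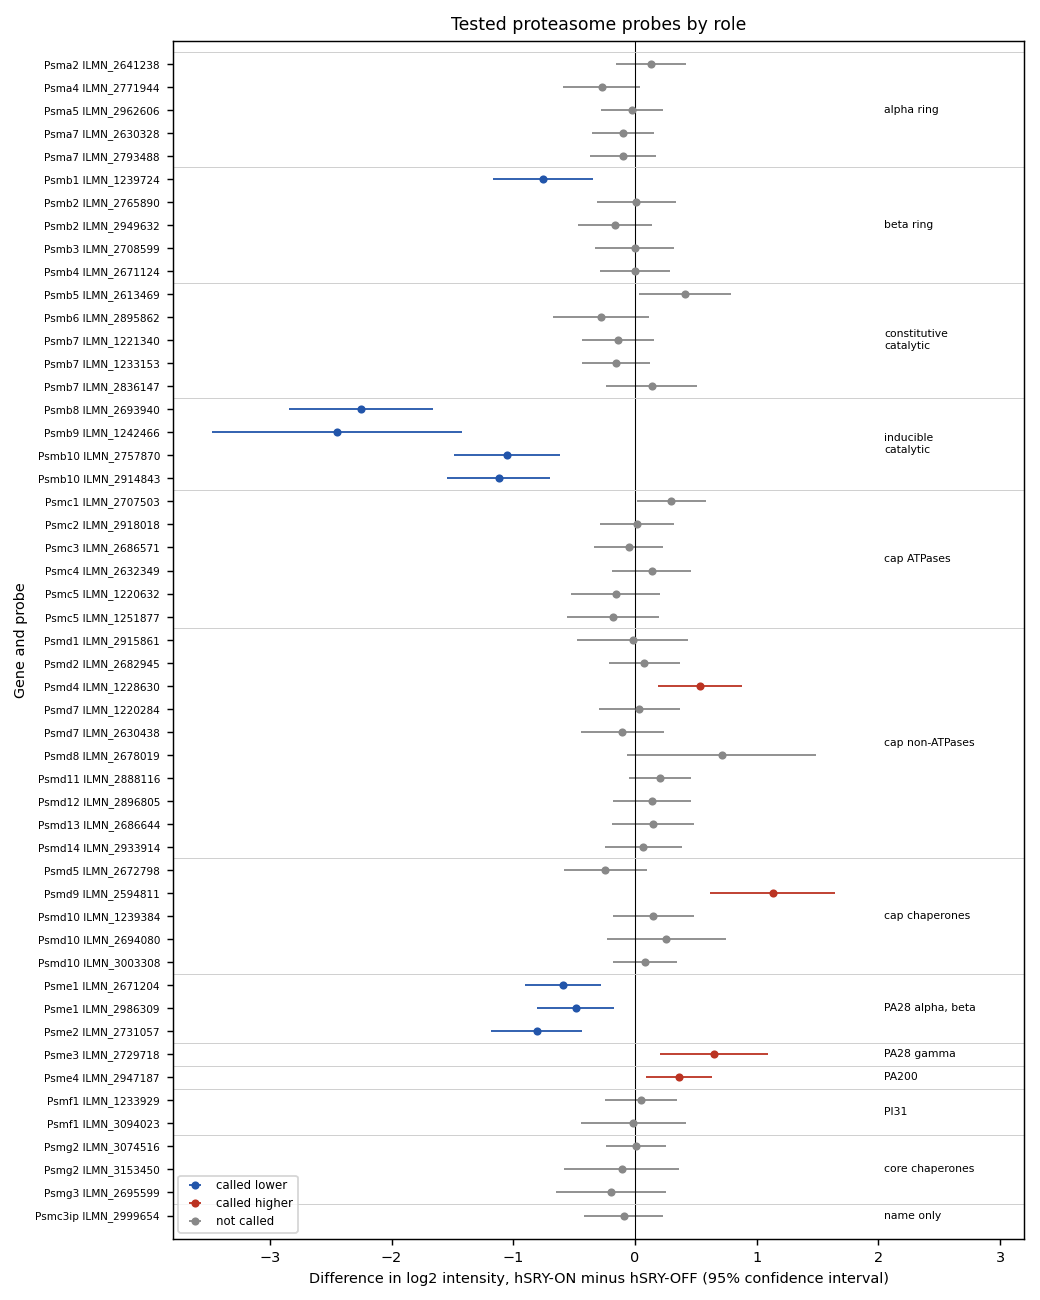
Differences in log2 intensity (hSRY-ON minus hSRY-OFF, x axis) with their 95% confidence intervals for the 51 tested probes (y axis), grouped by role, from 3 arrays per group. The 4 probes of *Psmb8*, *Psmb9* and *Psmb10* lie between -2.45 and -1.05, and most others have intervals that include 0.

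*Psmb8* and *Psmb9* showed the largest falls of the family. *Psmb8*, the inducible counterpart of Psmb5, had log2 intensities of 9.19, 9.27 and 8.91 on the hSRY-OFF arrays and 6.73, 6.45 and 7.43 on the hSRY-ON arrays. The hSRY-ON values all lay well below the hSRY-OFF values, and the difference was -2.25 ± 0.25 (SE, n = 3 per group, adjusted p = 0.000968), a level 4.76-fold lower. *Psmb9*, the inducible counterpart of Psmb6, had values of 10.11, 10.08 and 9.88 on hSRY-OFF arrays and 7.07, 6.93 and 8.71 on hSRY-ON arrays. The groups did not overlap, but replicate 3 of hSRY-ON stood 1.65 above the next hSRY-ON array, and the SD was 0.99 in hSRY-ON against 0.12 in hSRY-OFF. The difference was -2.45 ± 0.44 (adjusted p = 0.00593), or 5.46-fold lower. Ordered by the size of the fall over all 10734 tested probes, *Psmb9* stood at rank 76 and *Psmb8* at rank 101.

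*Psmb10*, the inducible counterpart of Psmb7, was measured by 2 probes that moved alike. The first had values of 11.48, 11.34 and 11.21 in hSRY-OFF and 10.23, 9.99 and 10.65 in hSRY-ON, a difference of -1.05 ± 0.18 (adjusted p = 0.00549). The second had values of 11.55, 11.46 and 11.50 in hSRY-OFF and 10.38, 10.04 and 10.73 in hSRY-ON, a difference of -1.12 ± 0.18 (adjusted p = 0.00407). Neither probe's groups overlapped, and the falls were 2.07-fold and 2.17-fold. In all, 4 probes of the family, those of *Psmb8*, *Psmb9* and *Psmb10*, were called with at least a 2-fold fall, beside 746 of all tested probes (6.95%).

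The PA28 genes also fell, with smaller fitted differences than the inducible subunits, a contrast that was not tested. For *Psme2*, which encodes PA28 beta, values were 10.39, 10.45 and 10.40 in hSRY-OFF and 9.41, 9.48 and 9.93 in hSRY-ON, with a difference of -0.81 ± 0.16 (adjusted p = 0.00881). Of the 2 *Psme1* probes (PA28 alpha), the one with the smaller p went from 12.23, 12.15 and 12.05 in hSRY-OFF to 11.39, 11.54 and 11.73 in hSRY-ON, a difference of -0.59 ± 0.13 (adjusted p = 0.0142). Its groups did not overlap, and its call was lost without hSRY-OFF replicate 1 or hSRY-OFF replicate 2. The other *Psme1* probe had values of 13.03, 12.80 and 12.82 in hSRY-OFF and 12.35, 12.26 and 12.57 in hSRY-ON, and its fall of 0.49 ± 0.14 (adjusted p = 0.0302) was lost in 6 of 16 alternative analyses, among them those without any single hSRY-OFF array and without hSRY-ON replicate 1 or 2. Replicate 3 was the highest hSRY-ON array for 7 of the 7 probes of the inducible subunits and PA28.

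**Figure D2:**
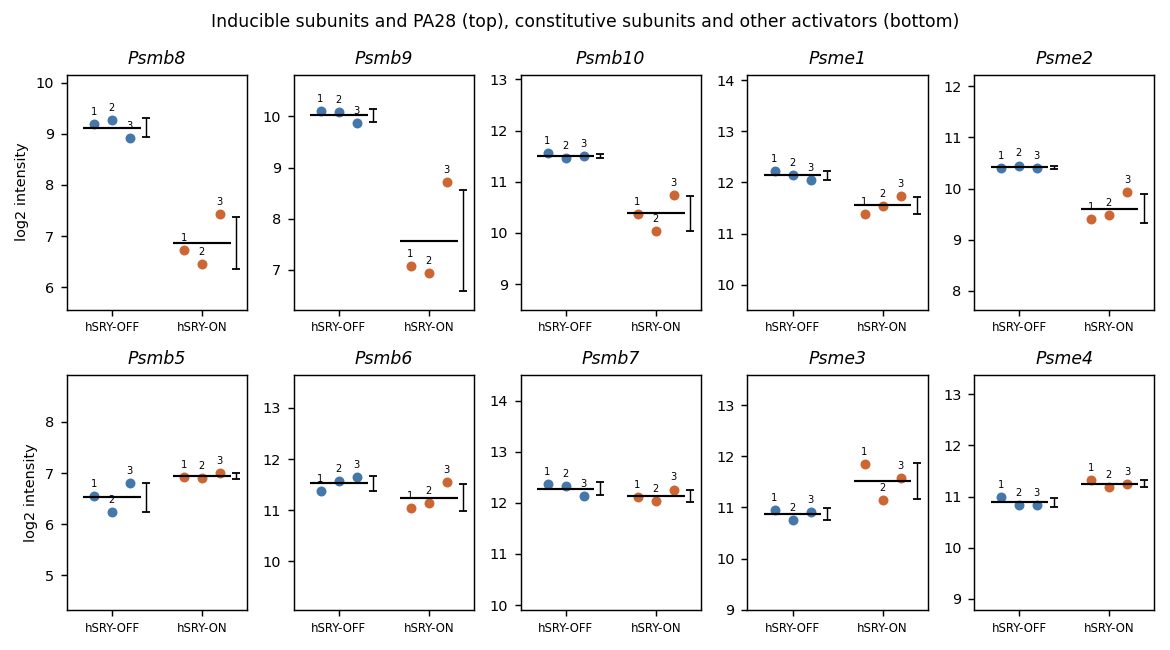
Log2 intensity (y axis, the same span in every panel) of 1 probe per gene on the hSRY-OFF (blue) and hSRY-ON (orange) arrays. Points are single arrays numbered by replicate, long bars are group means and whiskers are the SD (n = 3). The 5 genes of the top row have no overlap between groups, with replicate 3 the highest hSRY-ON array in each, whereas the groups of *Psmb6* and *Psmb7* overlap.

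The constitutive catalytic subunits were not called in either direction. *Psmb5*, which has the chymotrypsin-like activity, had values of 6.55, 6.24 and 6.81 in hSRY-OFF and 6.93, 6.90 and 7.00 in hSRY-ON. All its hSRY-ON values were the higher, yet the difference of 0.41 ± 0.16 did not pass (adjusted p = 0.0869, 95% interval 0.04 to 0.79 before adjustment), except without hSRY-OFF replicate 3 (adjusted p = 0.0448). *Psmb6*, with the caspase-like activity, had values of 11.37, 11.56 and 11.65 in hSRY-OFF and 11.04, 11.15 and 11.55 in hSRY-ON, which overlapped (difference -0.28 ± 0.17, adjusted p = 0.233, interval -0.67 to 0.11); it was called lower without hSRY-ON replicate 3 (adjusted p = 0.0444). *Psmb7*, with the trypsin-like activity, had 3 tested probes that did not share a sign. Its brightest probe had values of 12.37, 12.33 and 12.14 in hSRY-OFF and 12.12, 12.03 and 12.26 in hSRY-ON (difference -0.14, adjusted p = 0.426), and the others differed by -0.16 (adjusted p = 0.343) and 0.14 (adjusted p = 0.545).

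Each inducible subunit was set against the constitutive subunit it replaces by subtracting their log2 intensities on each array, which asks whether the 2 changed unequally. For *Psmb8* minus *Psmb5* the values were 2.64, 3.03 and 2.10 in hSRY-OFF and -0.20, -0.45 and 0.43 in hSRY-ON, a shift of -2.66. *Psmb9* minus *Psmb6* went from -1.26, -1.48 and -1.77 to -3.98, -4.21 and -2.84, a shift of -2.17. *Psmb10* minus *Psmb7* went from -0.82, -0.87 and -0.63 to -1.74, -1.99 and -1.53, a shift of -0.98. In all 3 pairs the groups did not overlap, and the exact permutation test (two-sided) gave p = 0.1 for each, which is the smallest p that 3 against 3 arrays allow and stayed 0.1 after adjustment over the 3 pairs. The design therefore cannot reach the threshold with this test.

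Elsewhere in the core particle, 1 probe was called. *Psmb1*, a beta subunit without catalytic activity, had values of 11.03, 11.03 and 10.78 in hSRY-OFF and 9.86, 10.26 and 10.44 in hSRY-ON, and it fell by 0.76 ± 0.17 (adjusted p = 0.0152). Its groups did not overlap, and the call was lost without hSRY-OFF replicate 1 or hSRY-OFF replicate 2. The other 4 tested probes of the non-catalytic beta subunits *Psmb2*, *Psmb3* and *Psmb4* differed by -0.16 to 0.012. Of the 7 alpha subunits, which form the outer rings, *Psma2*, *Psma4*, *Psma5* and *Psma7* were tested with 5 probes and none was called (0), with differences from -0.27 for *Psma4* (adjusted p = 0.158) to 0.13 for *Psma2* (adjusted p = 0.434). The *Psma4* values nevertheless did not overlap, at 12.25, 12.36 and 12.29 in hSRY-OFF and 12.02, 11.84 and 12.23 in hSRY-ON. Over *Psma* and *Psmb* genes, 19 of 23 probes were tested, 0 were called higher and 5 lower, beside 15.8% and 17.3% of all tested probes, and the median difference was -0.14 (lowest adjusted p 0.000968, 6 probes at an unadjusted p under 0.05). Of the 5, 4 were probes of *Psmb8*, *Psmb9* and *Psmb10*. Without these genes 1 of 15 probes was called lower, 2 had an unadjusted p under 0.05, and the median was -0.10.

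In the cap, 2 of 21 tested probes were called higher, beside 15.8% of all tested probes, and 0 lower. *Psmd4*, the ubiquitin receptor of the cap, had values of 12.48, 12.25 and 12.57 in hSRY-OFF and 12.89, 12.84 and 13.17 in hSRY-ON, and it rose by 0.53 ± 0.15 (adjusted p = 0.0288). *Psmd9*, a chaperone that helps assemble the ATPase ring and is not part of the finished particle, had values of 7.46, 7.46 and 7.38 in hSRY-OFF and 8.43, 9.06 and 8.19 in hSRY-ON, a rise of 1.13 ± 0.22 (adjusted p = 0.0081), or 2.19-fold. The groups of both did not overlap, and the *Psmd9* values spread more in hSRY-ON (SD 0.45) than in hSRY-OFF (SD 0.04). The *Psmd4* call, and with it 1 of the 2 rises of the cap, was lost under median scaling and without hSRY-OFF replicate 1, hSRY-OFF replicate 2 or hSRY-ON replicate 1. A second *Psmd9* probe was detected on 1 of the 6 arrays, an hSRY-ON array, and was not tested. The promoter of *Psmd9* holds the antioxidant response element core printed above, as do those of 5 other proteasome genes. Of these, *Psmb5*, *Psmb6* and *Psmd12* were not called, *Psmc6* was not tested, and *Psme4* was called higher. The *Psme4* call was lost in 9 of 16 alternative analyses, and a link between motif and change was not tested.

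Most cap probes were not called. The ATPases *Psmc1* to *Psmc5* were tested with 6 probes, none was called (0), and differences ran from -0.18 for a *Psmc5* probe to 0.30 for *Psmc1* (adjusted p = 0.0986), whose groups did not overlap. Of the non-ATPase subunits, 10 probes were tested and 1, that of *Psmd4*, was called. The largest other difference was that of *Psmd8*, a subunit of the lid of the cap, with values of 5.99, 4.78 and 5.37 in hSRY-OFF and 5.81, 6.58 and 5.89 in hSRY-ON (difference 0.71 ± 0.33, adjusted p = 0.138). It was above background on 1 hSRY-OFF array and on 3 hSRY-ON arrays, and its interval reached from -0.07 to 1.49. Psmd14, the enzyme that removes ubiquitin chains, had a dim probe that differed by 0.067 (adjusted p = 0.736), and the scaffold subunits *Psmd1* and *Psmd2* differed by -0.021 and 0.075. The other cap chaperones *Psmd5* and *Psmd10* gave differences of -0.25 (adjusted p = 0.231) and 0.084 to 0.26. Over *Psmc* and *Psmd* genes together, 21 of 30 probes were tested, 2 were called higher and 0 lower, the lowest adjusted p was 0.0081, 3 probes had an unadjusted p under 0.05, and the median difference was 0.084.

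To set the core against the cap, the mean log2 intensity of the tested cap probes was subtracted from that of the tested core probes on each array. The difference was 2.26, 2.33 and 2.20 in hSRY-OFF and 1.64, 1.57 and 1.84 in hSRY-ON, a shift of -0.58. Without *Psmb8*, *Psmb9* and *Psmb10* it was 2.51, 2.58 and 2.49 in hSRY-OFF and 2.27, 2.25 and 2.34 in hSRY-ON, a shift of -0.24. In both versions the hSRY-ON arrays lay below the hSRY-OFF arrays. The remaining shift joined a core mean that differed by -0.087 (11.73 ± 0.02 in hSRY-OFF, 11.65 ± 0.13 in hSRY-ON, SD over arrays) and a cap mean that differed by 0.15 (9.21 ± 0.07 and 9.36 ± 0.08). Single probes weighed on these means, *Psmb1* (-0.76) in the core and *Psmd9* (1.13), *Psmd8* (0.71, not called) and *Psmd4* (0.53) in the cap. The medians of the probe differences were -0.097 and 0.084. The genes of each mean were chosen with earlier results in view, and no p was computed.

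**Figure D3:**
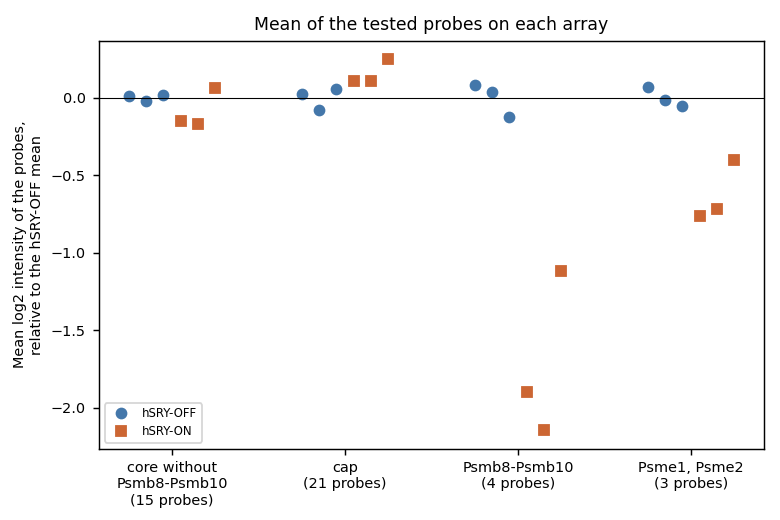
Mean log2 intensity of the tested probes of each group on each array (y axis), relative to the mean of the 3 hSRY-OFF arrays; circles are hSRY-OFF and squares hSRY-ON arrays, in the order replicate 1, 2, 3. The means of *Psmb8* to *Psmb10* and of *Psme1* and *Psme2* lie below 0 on all hSRY-ON arrays, least so on replicate 3, while the core without *Psmb8* to *Psmb10* lies within 0.17 of 0.

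The other activators were called higher, in the opposite direction to PA28 alpha and beta. *Psme3*, the nuclear PA28 gamma, had values of 10.95, 10.74 and 10.91 in hSRY-OFF and 11.84, 11.14 and 11.58 in hSRY-ON, a rise of 0.65 ± 0.19 (adjusted p = 0.0361). *Psme4*, the large single-chain activator PA200, had values of 10.99, 10.84 and 10.83 in hSRY-OFF and 11.33, 11.18 and 11.25 in hSRY-ON, a rise of 0.36 ± 0.12 (adjusted p = 0.0468). The groups of neither overlapped, but the *Psme3* call was lost in 7 and the *Psme4* call in 9 of 16 alternative analyses, and a second *Psme4* probe was detected on 1 hSRY-OFF array and not tested. Leaving out any 1 of the 6 arrays ended the *Psme4* call, and leaving out any array but hSRY-ON replicate 2 ended that of *Psme3*. Both probes of *Psmf1*, the proteasome inhibitor PI31, overlapped between groups (0.050 and -0.013), as did the 3 probes of the core assembly chaperones *Psmg2* and *Psmg3* (-0.20 to 0.0097). *Psmc3ip* differed by -0.092 (adjusted p = 0.644).

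The 39 probes that were not called had differences between -0.28 and 0.71, and 37 of them were under 0.3 in size. For 38 of the 39 the 95% interval lay within 1 log2 unit of 0, and for 27 within 0.5, so changes of more than 2-fold lay outside the interval for all of them but *Psmd8*. For 10 genes with more than 1 tested probe, all probes of a gene shared a call, and they shared a sign in 5 genes, with at most 0.29 between probes of a gene. The 14 untested probes had raw intensities of at most 211.4 and 12 of them were detected on no array (0). Their level in these livers was not resolved, and this left *Psma1*, *Psma3*, *Psma6*, *Psmc6* and *Psmd6* without any tested probe.

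Genes that work beside the proteasome were counted from lists chosen with earlier results of these data known. Of 9 tested probes for proteasome-associated factors, 0 were called, beside 33.1% of all tested probes, with an adjusted p of 0.205 for *Adrm1*, a ubiquitin receptor (difference 0.25), and 0.188 for *Pomp*, the maturation factor of the core (difference -0.27), which was called lower under median scaling, with array quality weights and without hSRY-ON replicate 3 (adjusted p = 0.045, 0.0452 and 0.0302). Among 7 tested probes for genes that control the transcription of proteasome genes, 1 was higher and 1 lower. The shares over all tested probes were 15.8% and 17.3%. *Nfyb*, a subunit of the factor that binds the CCAAT box, fell by 0.99 ± 0.12 (adjusted p = 0.00137). *Maff*, a small Maf partner of the Nrf factors, was at least 1.51-fold higher (adjusted p = 0.00812). This is a bound because its probe was not well above background on any hSRY-OFF array. The probe passed the detection filter through hSRY-ON alone (0 hSRY-OFF arrays, 3 hSRY-ON arrays), which favours rises. The other *Maff* probe was detected on no array. *Nfe2l1*, which drives the proteasome genes when the proteasome is inhibited, differed by 0.080 (adjusted p = 0.612), and *Nfe2l2*, the oxidative stress factor, by 0.20 (adjusted p = 0.539).

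None of the 5 tested probes for ubiquitin genes and activating enzymes was called (0), beside 33.1% of all tested probes called in either direction. Shuttle and extraction factors bring ubiquitinated proteins to the cap. Of their 14 tested probes, 2 were called higher and 1 lower, beside 15.8% and 17.3% of all tested probes. Among these were *Faf1* (0.61, adjusted p = 0.00847) and 1 of 3 *Ubqln1* probes (-0.38, adjusted p = 0.0476).

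Most tested genes of the list for peptide loading and MHC class I were called lower, as were the inducible subunits. Of 9 tested probes for peptide loading and MHC class I, 7 were called lower (beside 17.3% of all tested probes) and 0 higher, for 7 of 8 genes, with a median difference of -0.85; 4 were called without hSRY-OFF replicate 1 or hSRY-OFF replicate 2. *Tap1*, one chain of the peptide transporter and the gene that shares its upstream region with *Psmb9*, had values of 8.44, 8.33 and 7.99 in hSRY-OFF and 6.27, 6.08 and 7.07 in hSRY-ON, a fall of 1.78 ± 0.27 (adjusted p = 0.00304). *Tap2*, its partner, fell by 0.93 ± 0.15 (adjusted p = 0.00394). The peptide editors *Tapbp* and *Tapbpl* fell by 0.85 and 0.77 (adjusted p = 0.00356 and 0.0036). The other genes of the list called lower were *Calr* (-0.91), *Pdia3* (-0.43) and *AI451557* (-1.61). No heavy chain of MHC class I was tested, as the *H2-K1* probe was detected on only 2 arrays, both hSRY-OFF. The 2 probes of *B2m*, the light chain of MHC class I, were not called (both -0.28, adjusted p = 0.231 and 0.164), although the first was called lower with array quality weights and without hSRY-ON replicate 3 (adjusted p = 0.0351 and 0.0189).

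The inducible subunits are linked to the interferon response list by their known regulation. Of its 22 tested probes, 17 were called lower, beside 17.3% of all tested probes, and 0 higher. The calls were for 11 of 14 genes, with a median of -1.24, and 11 probes were called without hSRY-OFF replicate 1 or hSRY-OFF replicate 2. *Ifi47*, among those called lower, passed the detection filter through hSRY-OFF alone (3 hSRY-OFF arrays, 0 hSRY-ON arrays), which favours falls. With detection required on all 6 arrays, 13 of 18 tested probes of the list were called lower. For 19 of its 22 probes all hSRY-ON values lay below all hSRY-OFF values, beside 24.6% of all tested probes. *Usp18*, of the same list, went the other way at both tested probes (0.53 and 0.66) but was not called (adjusted p = 0.21 and 0.127). *Irf1*, the factor that acts on the *Psmb8*, *Psmb9* and *Tap1* genes, was lower at its 4 tested probes, by 1.15 to 1.88, with the lowest adjusted p at 0.00131. *Irgm1*, an interferon-induced GTPase, fell by 1.12 at 1 probe (adjusted p = 0.000866) and by 0.56 at its other tested probe (adjusted p = 0.00969). The second call was lost without hSRY-OFF replicate 1 (adjusted p = 0.0502). *Cxcl9*, a chemokine induced by interferon-gamma, had values of 10.70, 10.34 and 10.31 in hSRY-OFF and 6.78, 5.18 and 7.40 in hSRY-ON (difference -4.00 ± 0.51, adjusted p = 0.00154), with 2 of the 3 hSRY-ON arrays above background, and *Cxcl10* differed by -2.82 ± 0.41 (adjusted p = 0.0028), also with 2.

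**Figure D4:**
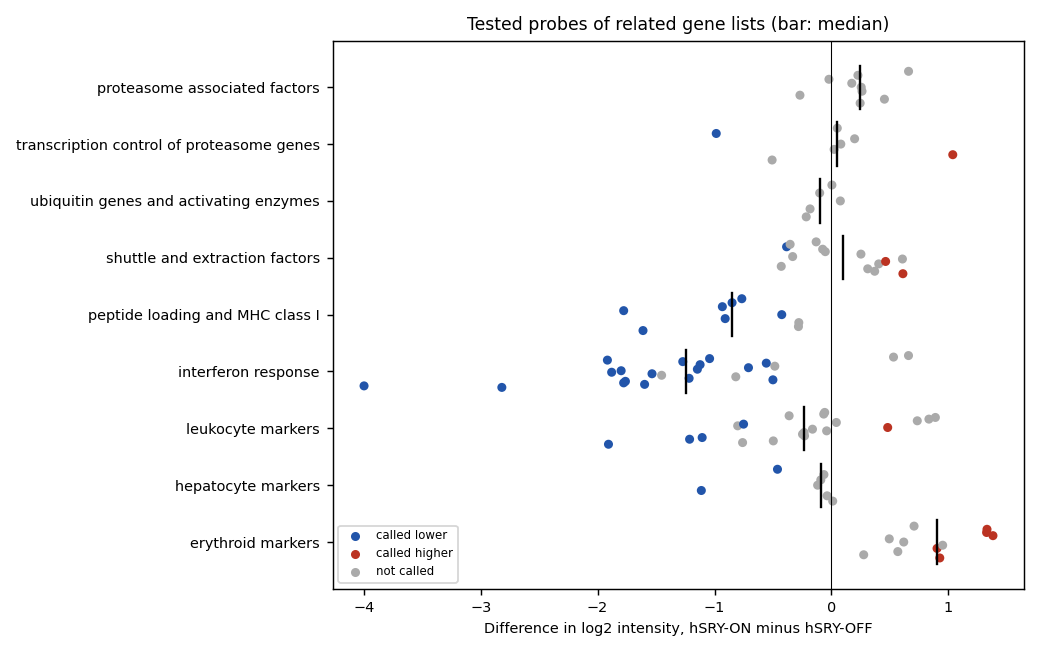
Differences in log2 intensity (hSRY-ON minus hSRY-OFF, x axis) of the tested probes of 9 gene lists (y axis), each point 1 probe coloured by its call and each black bar the median of a list. The medians of peptide loading and of the interferon response lie at -0.85 and -1.24, and those of the associated factors, ubiquitin genes and shuttle factors between -0.10 and 0.25.

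Inducible subunits are made at high levels by leukocytes, and in bulk liver fewer cells of a type and less RNA per cell cannot be told apart. The markers of other cell types were therefore read on the same arrays. Of 20 tested leukocyte probes, 4 were called lower and 1 higher (median -0.23), beside 17.3% and 15.8% of all tested probes. The summed linear level of the list was 47470 to 51120 in hSRY-OFF and 33650 to 86560 in hSRY-ON. Replicate 3 stood highest of the hSRY-ON arrays for *S100a9* (11.42, 11.57 and 13.61) and *Ngp* (11.57, 11.98 and 13.63). The same array was the highest of hSRY-ON for the inducible subunits and PA28, and a link between the 2 was not tested. *Ptprc*, the common leukocyte antigen, was detected on 0 arrays. The lymphocyte markers were among the probes called lower. *Cd3e*, of T cells, had values of 7.24, 6.96 and 6.88 in hSRY-OFF and 4.72, 4.81 and 5.81 in hSRY-ON (difference -1.91 ± 0.29, adjusted p = 0.00321), with 1 hSRY-ON array above background. *Cd79b*, of B cells, had values of 8.43, 8.45 and 8.94 in hSRY-OFF and 7.24, 7.00 and 7.94 in hSRY-ON at 1 probe (difference -1.21 ± 0.26, adjusted p = 0.0127) and fell by 1.11 at the other (adjusted p = 0.0325, a call lost in 6 of 15 alternatives). *Emr1*, of macrophages, fell by 0.75 at 1 of its 2 tested probes (adjusted p = 0.0107), and the other differed by -0.80 (adjusted p = 0.0971). *Csf1r*, the growth factor receptor of macrophages, was the leukocyte gene with a probe called higher (0.48, adjusted p = 0.0433), while its other probe differed by -0.16 (adjusted p = 0.394). The part of these cells in the fall of the inducible subunits was not tested.

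Markers of other cell types were called in both directions, and are to be read beside 15.8% of all tested probes called higher and 17.3% lower. Erythroid markers had 5 of 11 tested probes called higher and 0 lower (median 0.90), with summed levels of 32800 to 63180 in hSRY-OFF and 58190 to 76860 in hSRY-ON. Endothelial markers had 3 of 4 called higher, stellate cell markers 1 of 3 higher and 2 lower, and the 1 tested biliary probe was not called. Of the 2 stellate probes called lower, that of *Lrat* passed the detection filter through hSRY-OFF alone, which favours falls. It was detected on 3 hSRY-OFF arrays and 0 hSRY-ON arrays. Of 7 hepatocyte probes, 2 were called lower, those of *Alb* and *Ttr*, and summed levels were 157700 to 161100 in hSRY-OFF and 143900 to 151100 in hSRY-ON. The *Alb* probe was dim, with raw intensities of 201.7 to 448.4. The brightest probe in the sum, of *Ahsg*, had raw intensities of 42245 to 45586. The highest raw intensity of any probe on an array was 44365 to 47161, so the sum lies near the top of the scale. The part of these markers in the differences of the proteasome genes was not tested.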

How the data were processed

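Total RNA from liver was labelled and hybridised to Illumina MouseRef-8 BeadChips, with 3 arrays per group as the labels give them, from mice per the methods. The authors deposited a bead intensity per probe and array on a linear scale, neither background-subtracted nor normalized between arrays, together with a deposited detection p-value against negative control beads. The scanner software and genome build are not given in the sources used here. The study names TCC, a package for counts, which was not applied to intensities; the submitters' processing notes name limma.

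Background was inferred from intensities and detection p-values (nec, offset 16) in limma 3.58.1 under R 4.3.3; arrays were then quantile normalized and values taken as log2. The offset shrinks differences of dim probes. A probe was fitted if its detection p was below 0.01 on 3 or more of the 6 arrays, using lmFit and eBayes, and Benjamini-Hochberg adjustment ran over all 10734 (threshold 0.05). Probes of 1 gene were fitted one by one. Where a whole group was undetected, a bound was computed against the lowest detected signal of each of its arrays. Pairs of probes were compared by exact permutation. In 3 simulated data sets, 1.51% of changes of 0.5 log2 units were called, 44.6% of 1 unit and 90.4% of 2 units. Of all calls, 4.48% were false. Far fewer probes were changed there than were called here, and a probe that was not called may still differ modestly. The number of arrays limits the precision. No column was left without a sample (0). Values on every array are given for 1 or more probes of *Psmb5* to *Psmb10*, *Psme1* to *Psme4* and up to the 6 largest called rises and 6 largest called falls of the family. From each other list up to 4 called genes with the smallest p, and *Nfe2l1*, *Nfe2l2*, *Pomp*, *Adrm1*, *Tap1*, *B2m* and *Irf1*, are named with their differences, with some genes that this rule names not reported here; *Psma4*, *Psmd8*, *Emr1*, *Csf1r*, *Cd3e* and *Cd79b* were described further after their values were seen. The members and the lists were chosen with earlier results of these data known. Promoters and neighbours came from RefSeq (GRCm38.p6), read with Python 3.11.15. Alternatives covered the background correction, offset, scaling, detection filter, variance model, threshold, a replicate block and each array left out.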

Additional observations from a re-analysis of the deposited data

How the results depend on the processing

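The count of proteasome probes called higher, 4, was 1 under median scaling and 1 at an adjusted p under 0.01, and with each array left out it lay between 1 and 3. It was 1 without hSRY-OFF replicate 1, without hSRY-OFF replicate 2 and without hSRY-ON replicate 1, and 2 without hSRY-ON replicate 3. The count called lower, 8, was 5 at an adjusted p under 0.01, and 5 to 9 with an array left out, with the 5 reached without hSRY-OFF replicate 1 or 2. In the cap, 1 probe in place of 2 was called higher under median scaling and at an adjusted p under 0.01, and 1 to 2 with an array left out (1 without hSRY-OFF replicate 1, hSRY-OFF replicate 2 or hSRY-ON replicate 1). In the core, 0 to 1 were called higher, the 1 appearing without hSRY-OFF replicate 3. Median scaling moved the median difference of the tested proteasome probes from -0.013 to -0.13 and that of all tested probes from 0.017 to -0.038. The core minus cap shift of -0.58 was -0.46 without background correction, and -0.24 without *Psmb8* to *Psmb10*, a version added after the data were seen. *Nfe2l2*, which was not called, turned to -0.021 without hSRY-OFF replicate 1 (adjusted p = 0.953) and lay between -0.021 and 0.34 with an array left out. The calls of *Psmb8*, *Psmb9*, *Psmb10*, *Psme2*, *Psmd9*, *Tap1*, *Tap2*, *Tapbp*, *Tapbpl* and *Cxcl9* held in every alternative that could be fitted; over these the adjusted p of *Psmb8* ran from 6.58e-05 to 0.0083 and that of *Psmb9* from 7.22e-05 to 0.0291, and their differences from -2.54 to -1.48 and from -3.02 to -1.83, the smallest without background correction. *Psmd4* lost its call in 4 of 16 alternatives, and *Psmb1* and the *Psme1* probe with the smaller p in 2 each. Calls in the peptide loading list ranged from 4 to 8 and in the interferon list from 11 to 19 with an array left out. The cause was not tested.

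Samples of the same replicate number did not deviate together (r = 0.0248, 0.0955 and 0.0523), and 2 of 6 arrays correlated best with their own number, so the numbers were not read as pairs. With the replicate number as a block, 3 proteasome probes were called higher and 7 lower, since *Psme4* (adjusted p = 0.0769) and 1 *Psme1* probe (adjusted p = 0.0543) lost their calls and no other named proteasome probe changed its call; over all tested probes, 1565 were higher and 1645 lower.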
